A study of Mus musculus with 4 samples.

Results

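The genes described are Id1, Id2 and Id3, which encode inhibitor of DNA binding proteins, and Tcf3, Tcf4 and Tcf12, which encode the E proteins E2A, E2-2 and HEB. They were chosen by gene symbol, keeping probe sets annotated with exactly 1 symbol, and all 6 were found among 19938 such genes, each with 1 probe set. The samples were regulatory T (Treg) cells, a CD4 T cell subset that restrains immune responses and whose identity is set by the transcription factor Foxp3. The CYLD knockout group was Cyld fl/fl with Foxp3-yfp-cre (2 arrays), and the wild-type (WT) group was Cyld+/+ with Foxp3-yfp-cre (2 arrays), so both groups carried the Foxp3-driven Cre. All mice were C57Bl6 and 6 to 8 weeks old, and YFP-positive cells were sorted from spleen with lymph nodes, or from spleen alone, since the labels give both. CYLD is a deubiquitinase that limits NF-kB signalling, and its deletion here is restricted to cells in which the Foxp3 locus drives Cre. Nothing in the labels says that the replicates came from separate mice. Every p-value therefore reflects only spread between these samples, in the main fit pooled over all genes, and that spread may be technical.

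E proteins are basic helix-loop-helix transcription factors that pair with each other and bind short DNA elements called E-boxes. Id proteins have the helix-loop-helix part that makes pairs but lack the basic part that touches DNA, so an E protein paired with an Id protein cannot bind. In lymphocytes the balance of the 2 families is known for setting lineage choice in the thymus and the bone marrow, and in mature T cells Id2 is known for its link to effector cells and Id3 for its link to naive and memory cells. In mouse Treg cells Id2 and Id3 are known to be needed for the maintenance of the population. Tcf3 and Tcf4 here are the E protein genes, not the HMG-box factor genes Tcf7l1 and Tcf7l2 that have carried similar names.

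In CYLD knockout Treg cells Id2 was higher and Id3 was lower than in WT Treg cells, and Tcf3, Tcf4 and Tcf12 did not pass the test. Id1 lay under the intensity filter and was not tested. Id2 had a 1.51-fold ratio of mean intensities, knockout over WT, and Id3 had a 0.591-fold ratio. Of the 5 members that passed the filter on low values, 1 was called higher and 1 lower by limma at a Benjamini-Hochberg adjusted p under 0.05, against 4.79% of all 13956 tested genes called higher, 3.50% called lower and 8.30% called in either direction. In all 5 the knockout and WT arrays did not overlap, as was true of 48.7% of all tested genes; 3 members lay wholly above WT, as did 22.5% of tested genes, and 2 wholly below, as did 26.2%. All intensities below are on the linear scale of the deposited table, fold changes are differences of log2(intensity + 1), knockout minus WT, and no level of one gene is set against that of another, because probe sets differ in their response.

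Id2 and Id3 are the members that passed the test, and the 250 bases before their annotated starts are shown because the E-box is the element whose binding Id proteins prevent. The sequences are from RefSeq (GRCm38.p6), whose promoter entries matched 4 of the 6 members, Id2, Id3, Tcf3 and Tcf12. The Id2 window is chr12:25096093-25096342 on the minus strand and the Id3 window is chr4:136143572-136143821 on the plus strand, each written 5′ to 3′ on the gene's strand and ending at the base before the start. Capitals mark matches to the general E-box CANNTG.
Id2: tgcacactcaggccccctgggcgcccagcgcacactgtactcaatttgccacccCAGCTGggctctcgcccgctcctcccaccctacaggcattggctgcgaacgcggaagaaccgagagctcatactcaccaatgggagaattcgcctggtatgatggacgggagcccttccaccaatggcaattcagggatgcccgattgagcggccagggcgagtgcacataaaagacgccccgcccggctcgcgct
Id3: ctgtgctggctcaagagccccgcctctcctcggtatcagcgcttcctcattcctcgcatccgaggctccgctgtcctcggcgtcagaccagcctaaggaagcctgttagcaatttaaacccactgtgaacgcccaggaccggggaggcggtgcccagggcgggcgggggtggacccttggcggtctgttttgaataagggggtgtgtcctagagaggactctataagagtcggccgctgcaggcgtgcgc
The Id2 window held 1 E-box, CAGCTG, whose first base lay 196 bases before the start, and the Id3 window held none. Both windows had a G and C content of 62.8%. On either strand, CANNTG was found in 66.2% of the 32851 promoter windows of this length in the table, and its form CAGCTG, which is counted in the general E-box too, in 13% of them. The Tcf3 window held CACTTG, and of the 3 Tcf12 windows 1 held CAAGTG, 1 held CAGCTG and 1 held no E-box. A search for the kappaB motif bound by NF-kB found it in 1 of the 3 Tcf12 windows and in none of the windows of Id2, Id3 and Tcf3, against 7.25% of all windows. These are letter matches in short windows, with no measurement of binding.

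Across the series, 4 Affymetrix Mouse Gene ST arrays had median intensities of 99.0 to 105. Cyld read 284 and 218 on the knockout arrays, against 524 and 502 on the WT arrays, and was called lower (log2 fold change -1.04, limma adjusted p = 8.96e-08). The deleted part of the gene is not given in the labels, so how much of this probe set lies within it is not known. The 7 Treg markers (Foxp3, Il2ra, Ctla4, Ikzf2, Cd3e, Cd4 and Tnfrsf18) were all tested and none passed the test in limma, with 1 at an unadjusted p under 0.05; Foxp3 read 1697 and 1553 in the knockout, against 2016 and 1881 in WT. Of 10 tested macrophage markers, 10 were lower in the knockout, where the list summed to 1053 and 1270.0, against 2640 and 2382 in WT. Of 9 tested proliferation markers, 8 were higher in the knockout, with sums of 6591 and 9876, against 5142 and 5016 in WT, and 4 were higher without knockout replicate 2. Over all tested genes 3.50% were called lower and 4.79% higher. Knockout replicate 2 also stood apart in Y-linked Kdm5d, which read 268 on knockout replicate 1 and 127 on knockout replicate 2, against 271 and 275 in WT. Xist, an RNA gene of female cells, read 1630 and 2321 in the knockout, against 1306 and 1403 in WT. Xist was called higher (limma adjusted p = 0.0291). Kdm5d (limma adjusted p = 0.0160) and Y-linked Eif2s3y (0.00243) were called lower, and Y-linked Uty was not called (0.546). Eif2s3y read 221 and 98.9 in the knockout, against 253 and 219 in WT. Uty read 283 and 132 in the knockout, against 225 and 219.7 in WT. For both genes the groups overlapped, and knockout replicate 2 was the lowest array. The part of sex in the group differences was not tested. The calls rest on a spread pooled over all genes, which gives each log2 fold change the same standard error of 0.17; with no pooling limma's linear model called 0 genes, with 842 higher and 972 lower at an unadjusted p under 0.05.

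**Figure D1:**
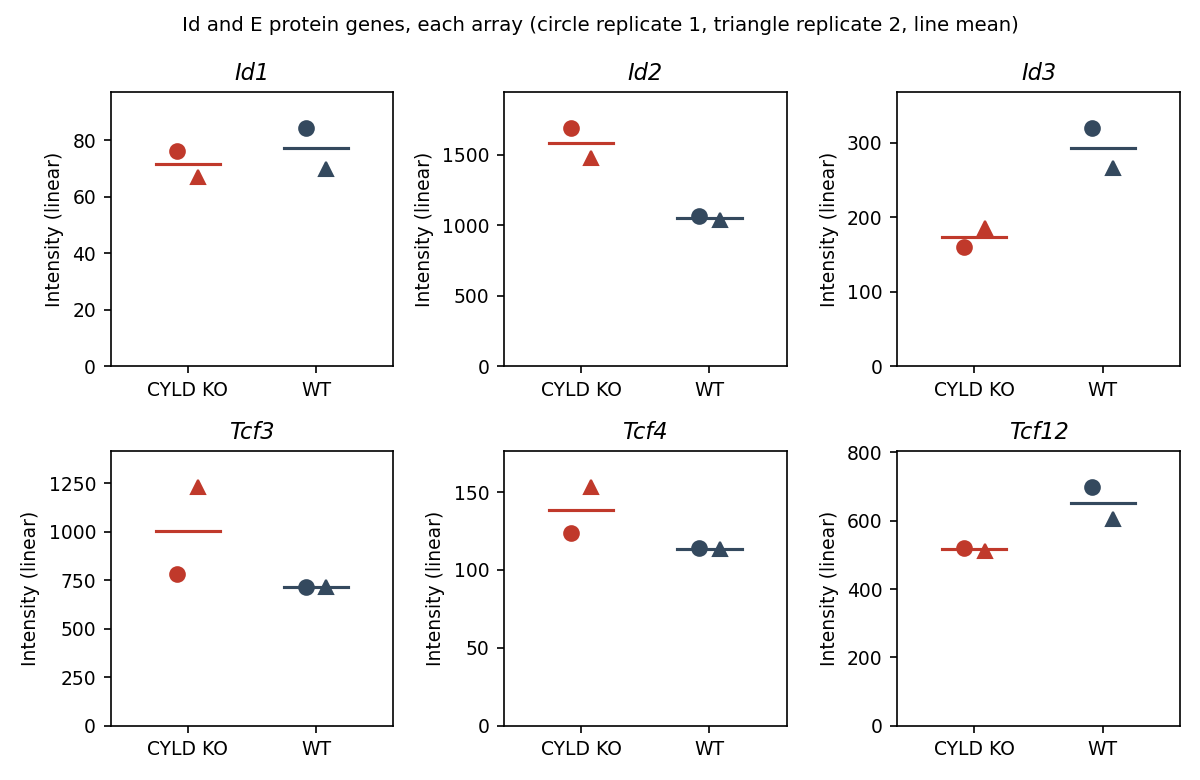
Linear intensity of the 6 genes on each array, CYLD knockout left and WT right; circles are replicate 1, triangles replicate 2 and lines group means (n = 2 each). Both knockout points lie above both WT points for Id2, Tcf3 and Tcf4 and below them for Id3 and Tcf12, the groups overlap for Id1, and for Tcf3 the knockout replicates read 779 and 1229.7.

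Among the inhibitors, Id2, the Id family member most tied to effector T cells, read 1689.7 and 1472.5 on the knockout arrays, against 1063 and 1035 on the WT arrays. Both knockout arrays were above both WT arrays. Group means were 1581 ± 154 in the knockout and 1049 ± 20.3 in WT (SD, n = 2 each). The log2 fold change was 0.59 ± 0.17 (SE; 95% interval 0.26 to 0.92; limma adjusted p = 0.00992), the 463rd highest of 13956 tested genes. Set pair by pair, the 4 differences between a knockout and a WT array ran from 0.47 to 0.71 on the log2 scale. The WT replicates differed by 0.04 and the knockout replicates by 0.20, where the median gene differed by 0.14 between WT and by 0.19 between knockout replicates. The call was lost when knockout replicate 1 (limma adjusted p = 0.0546), WT replicate 1 (0.181) or WT replicate 2 (0.222) was left out, with fold changes of 0.49, 0.61 and 0.57. In each such fit the lone array of its group is assumed to vary like the other group's pair, which alone gives the spread, so these p-values also reflect which pair was left; the median gap between replicates was larger in the knockout.

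Id3, which is typical of naive and memory T cells and is induced by T cell receptor and TGF-beta signals, read 161 and 186 in the knockout, against 320.4 and 267 in WT. Both knockout arrays were below both WT arrays. Group means were 174 ± 18.1 in the knockout and 294 ± 37.9 in WT (SD, n = 2 each), so that the mean intensity fell by 40.9%. The log2 fold change was -0.75 ± 0.17 (SE; 95% interval -1.09 to -0.42; limma adjusted p = 3.28e-04), the 139th lowest of the tested genes. The 4 pairwise differences ran from -0.99 to -0.52. The WT replicates differed by 0.26, more than 78.5% of tested genes did between these arrays, and without WT replicate 1, the higher of the pair, the log2 fold change was -0.62 and the adjusted p was 0.160. Leaving out any other array kept the adjusted p at 0.00801 or under. The 95% intervals of the Id2 and Id3 fold changes did not overlap, with Id2 wholly above 0 and Id3 wholly below it. In bulk samples such as these, fewer cells that express a gene and less RNA per cell cannot be told apart.

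Id1, an Id gene best known as a target of BMP signalling, read 76.3 and 66.9 in the knockout, against 84.3 and 69.9 in WT. The 2 groups overlapped. Its mean log2 value of 6.23 lay just under the filter at 6.29, so it was not tested; means were 71.6 ± 6.61 in the knockout and 77.1 ± 10.2 in WT (SD, n = 2 each), a log2 difference of -0.10. With no filter the limma adjusted p was 0.820. No detection call came with the values, so these readings do not show whether Id1 is expressed.

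Among the E proteins, Tcf3, which encodes the splice forms E12 and E47 of E2A, read 779 and 1229.7 in the knockout, against 712 and 713 in WT. Knockout replicate 1 lay close to the WT arrays and knockout replicate 2 far above them. Means were 1004 ± 319 in the knockout and 713 ± 0.648 in WT (SD, n = 2 each), with a log2 fold change of 0.46 ± 0.17 (SE; 95% interval 0.12 to 0.79; limma adjusted p = 0.0747). The difference from the WT mean was 0.13 in knockout replicate 1 and 0.79 in knockout replicate 2. The gap of 0.66 between the knockout replicates was larger than that of 98.9% of tested genes. The log2 fold change was 0.79 without knockout replicate 1 (limma adjusted p = 6.81e-04) and 0.13 without knockout replicate 2 (limma adjusted p = 0.763), both with the spread of the WT pair, so the size of the difference depends on which knockout array is used. The summed proliferation markers were also highest on knockout replicate 2, which was the array lowest in Y-linked Kdm5d and highest in Xist as well. The part of proliferation or of sex in the Tcf3 values was not tested.

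Tcf4, which encodes E2-2, the E protein that plasmacytoid dendritic cells need, read 123 and 153 in the knockout, against 114 and 113 in WT. Both knockout arrays were above both WT arrays, and again knockout replicate 2 was the higher. Means were 138 ± 21.0 in the knockout and 114 ± 0.507 in WT (SD, n = 2 each). The log2 fold change was 0.27 (95% interval -0.06 to 0.61; limma adjusted p = 0.370) and ran from 0.12 without knockout replicate 2 to 0.43 without knockout replicate 1. Of 6 tested plasmacytoid dendritic cell markers, 0 were higher and 1, Pacsin1, was lower in the knockout (limma adjusted p = 0.0152, and 0.339 and 0.176 without WT replicates 1 and 2), with sums of 834 and 892, against 1052 and 1068 in WT. Of 5 tested B cell markers 0 passed in limma, with 1 at an unadjusted p under 0.05, and the list summed to 896 and 877 in the knockout, against 875 and 900.0 in WT.

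Tcf12, which encodes HEB, the partner of E2A in thymocytes, read 521 and 512 in the knockout, against 699 and 606 in WT. Both knockout arrays were below both WT arrays. Means were 516 ± 6.57 in the knockout and 652 ± 65.4 in WT (SD, n = 2 each), with a log2 fold change of -0.33 (95% interval -0.67 to -0.00113; limma adjusted p = 0.248). The knockout replicates differed by 0.03 and the WT replicates by 0.20. The E protein genes had fitted values on both sides of 0, and none of the 3 was past the threshold with all 4 arrays.

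**Figure D2:**
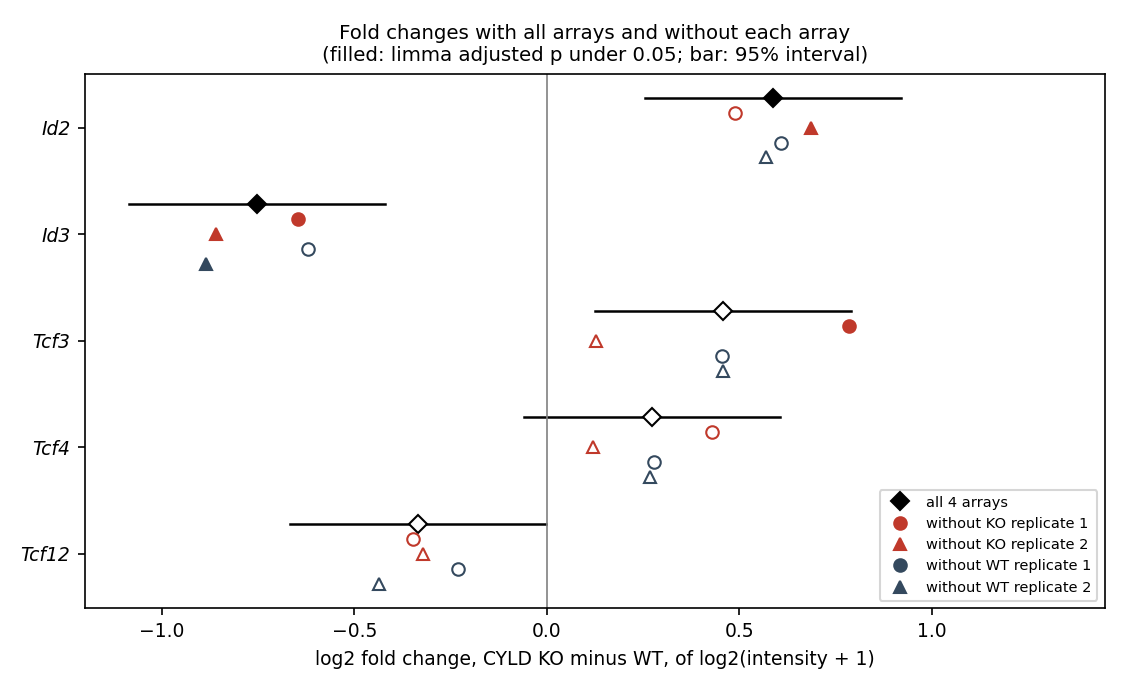
Log2 fold change of log2(intensity + 1), CYLD knockout minus WT, for the 5 tested genes with all 4 arrays (diamond, with the 95% interval of the limma fit) and without each array; filled symbols have a limma adjusted p under 0.05. Every symbol of Id2 lies above 0 and every symbol of Id3 below it, and Tcf3 moves between 0.13 and 0.79 with the knockout array that is left out.

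The genes most like each member were taken as those with the smallest distance between log2 values over the 4 arrays, centred on each gene's own mean. Predicted genes, unnamed clones, small RNAs and receptor segments were not eligible, which left 13025 other tested genes for each tested member. For Id2 these were Vegfc, Spo11 and Clcn5, at distances of 0.038 to 0.0412 log2 units. Vegfc read 111 and 94.1 in the knockout, against 70.0 and 67.8 in WT. For Id3 they were Vps37b, Ifi214 and Ms4a4c, at 0.0418 to 0.0811. Vps37b, a subunit of the ESCRT-I sorting complex, read 189.8 and 211 in the knockout, against 370 and 311 in WT, a log2 fold change of -0.76. For Tcf3 they were Zwilch, H2bc18 and Anp32e, and each was highest on knockout replicate 2, as Tcf3 was. Zwilch, a kinetochore protein gene, read 115 and 185 in the knockout, against 102 and 106 in WT. For Tcf4 they were Ndufa8, Acot6 and Ascl4, for Tcf12 Dus1l, Trim39 and Smim15, and for Id1 Rnaseh2c, Brdt and Nek7. Likeness over 4 arrays is a description, and no test was made of it.

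Of 12 tested genes for other helix-loop-helix factors and cofactors that bind E proteins, 1 was higher and 0 lower in the knockout, a share near the 8.30% called over all tested genes, with a median log2 fold change of -0.06, against -0.02 over all tested genes. The one that rose was Lmo2, a LIM-only adaptor of complexes of TAL1 and E proteins, which read 118 and 86.7 in the knockout, against 68.3 and 64.1 in WT (log2 fold change 0.61, limma adjusted p = 0.00708). Its adjusted p was between 0.127 and 0.232 without knockout replicate 1 or either WT array. Of 7 tested genes for the turnover of Id and E proteins, among them Usp1, the deubiquitinase that stabilises Id proteins, 0 passed in limma and 0 had an unadjusted p under 0.05.

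Of 17 tested regulators upstream of the Id genes, 1 was higher and 0 lower, again near the 8.30% called over all tested genes, with a median log2 fold change of -0.12. The gene that rose was Prdm1, which encodes Blimp-1, a repressor of Id3 in effector lymphocytes. It read 692 and 624 in the knockout, against 401 and 341 in WT (log2 fold change 0.83, limma adjusted p = 5.07e-05), with an adjusted p of 0.0677 without WT replicate 2. The other 16, which include BMP and TGF-beta receptor genes, Smad genes and Egr1, Egr2 and Egr3, did not pass. Among them Bmpr2 (log2 fold change 0.48), Egr2 (0.45), Acvr1 (0.38) and Smad1 (-0.42) had an unadjusted limma p under 0.05. The BMP receptor gene Bmpr1a lay under the intensity filter and was not tested.

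Genes described as E protein targets in lymphocytes moved both ways. Of 14 tested genes, 3 were higher, 2 lower and 9 not past the threshold, with a median log2 fold change of -0.01. Over all tested genes, 4.79% were higher and 3.50% lower. Cdk6, a G1 cyclin-dependent kinase gene described as repressed by E2A in mouse T-lineage cells, read 1247 and 1079 in the knockout, against 559.9 and 545 in WT (log2 fold change 1.07, limma adjusted p = 3.31e-08). Cxcr4, the CXCL12 receptor gene, read 867 and 832 in the knockout, against 445 and 440.1 in WT (0.94, limma adjusted p = 2.22e-06). For both genes the knockout arrays were well above the WT arrays, and the calls held without each array in turn. Il7r, the interleukin-7 receptor gene, rose too, with an adjusted p of 0.0568 and 0.125 without WT replicates 1 and 2. Socs3, a feedback inhibitor of cytokine signalling, read 199 and 209 in the knockout, against 319 and 300.5 in WT (-0.60, limma adjusted p = 0.00811). Foxo1, named after its values were seen, fell by 0.54 on the log2 scale (limma adjusted p = 0.0206). Leaving out either WT array left 2 members higher and 0 lower.

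**Figure D3:**
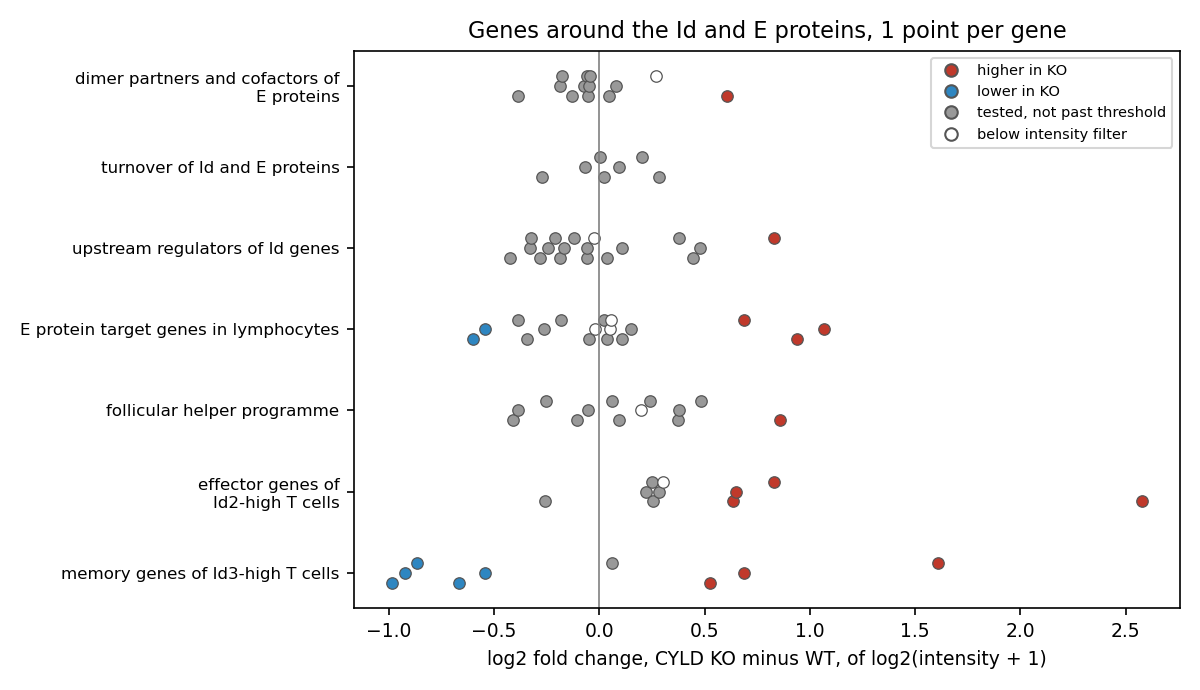
Log2 fold change of log2(intensity + 1), CYLD knockout minus WT, of each gene in 7 lists around the Id and E proteins; red points are higher and blue points lower at a limma adjusted p under 0.05, grey points were tested and not past it, and white points lay under the intensity filter. Most points of the top 3 lists are grey, whereas 8 of 9 tested memory genes are coloured, 3 higher and 5 lower.

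Treg cells of mice without Id2 and Id3 are known to take up the follicular helper programme. Of its 12 tested genes, 1 was higher and 0 lower, a share near the 8.30% called over all tested genes. Their median log2 fold change was 0.08. Il4, a cytokine gene of follicular and type 2 helper cells, read 195 and 159 in the knockout, against 96.5 and 96.3 in WT (log2 fold change 0.86, limma adjusted p = 2.14e-05). The other 11 did not pass and had fitted values on both sides of 0. Among those named here after their values were seen, Maf (0.48, limma adjusted p = 0.0512), Tox2 (0.38) and Pdcd1 (0.37) had both knockout arrays above both WT arrays. Btla (-0.41) and Cxcr5, the follicular homing receptor gene (-0.39), had both below, and Bcl6, the factor that defines follicular helper cells, had a log2 fold change of 0.06.

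Effector genes linked to high Id2 had 4 higher and 0 lower of 9 tested, against 4.79% and 3.50% of all tested genes. Their median log2 fold change was 0.28. The 4 higher genes were the chemokine gene Ccl5, Prdm1, Tbx21, which encodes T-bet, and Gzmb, a granzyme gene. Tbx21 read 234 and 302 in the knockout, against 182 and 158 in WT, and Gzmb read 326 and 257, against 186 and 187. Leaving out 1 array changed which of these 9 genes were called. Ccl5 kept its call throughout, whereas Prdm1, Tbx21 and Gzmb each lost it in at least 1 of these fits. Knockout replicate 1 minus replicate 2 was -0.37 for Tbx21 and 0.34 for Gzmb on the log2 scale. The median absolute gap between these arrays was 0.19. Memory genes linked to high Id3 had 5 lower and 3 higher of 9 tested, against 3.50% and 4.79% of all tested genes. Their median log2 fold change was -0.54. Bach2, a repressor of effector differentiation, read 359.5 and 355 in the knockout, against 637 and 667 in WT, and Satb1, a chromatin organiser, read 711 and 643, against 1303.5 and 1262. Ccr7 fell with them, as did Lef1 and Foxo1, named after their values were seen. Eomes, a T-box factor of memory CD8 T cells, went the other way, at 297 and 342 in the knockout, against 109 and 98.9 in WT (log2 fold change 1.61), and Il7r and Myb, the second named after its values were seen, were higher as well. Without either WT array, 1 member was higher and 3 were lower. All the gene lists, the effector and memory lists among them, were drawn up with earlier results of these samples known, so their directions are not independent evidence.

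Markers of other cell types are given for the lists not covered above. Of 5 tested conventional dendritic cell markers 0 passed in limma, with 0 at an unadjusted p under 0.05, and sums were 786 and 837 in the knockout, against 754 and 796 in WT. The 2 CD8 T cell markers, Cd8a and Cd8b1, did not pass. Of 5 tested NK cell markers, Nkg7 and Eomes were higher and Fcer1g and Tyrobp lower, with 1 of them lower without knockout replicate 2 or either WT array, while Klrb1c did not pass and Ncr1 and Klra8 lay under the filter. Id3 and Tcf12, the second of which was not called, lay wholly below WT in the knockout. So did the tested macrophage markers and 26.2% of all tested genes. The brightest macrophage markers were Vcam1, Cd68 and C1qb, and C1qb read 78.7 and 95.3 in the knockout, against 292 and 219 in WT. The part of macrophage RNA in the Id3 values was not tested.

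**Figure D4:**
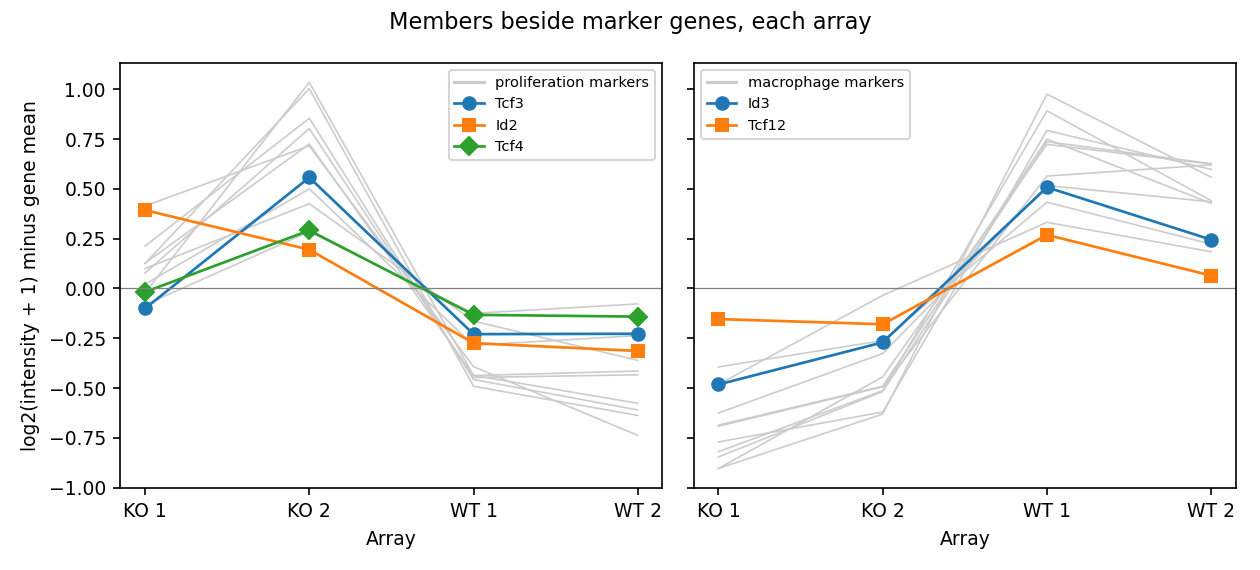
log2(intensity + 1) minus each gene's mean on the 4 arrays, knockout arrays left and WT arrays right; grey lines are the 9 tested proliferation markers (left) and the 10 tested macrophage markers (right), coloured lines the named members. Tcf3 and Tcf4 peak on knockout replicate 2, as do all 9 tested proliferation markers. Id2 peaks on knockout replicate 1, and Id3 and Tcf12 lie below 0 on both knockout arrays.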

How the data were processed

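Per the labels' protocols, total RNA came from a column extraction and was labelled as biotinylated cRNA by the Affymetrix procedure. The deposited table gives a linear intensity for each probe set on each array; background correction, summarisation and scaling are not given in the sources used here. Of 35557 probe sets, 21789 had exactly 1 symbol in a platform annotation of 2016. Each gene was represented by its brightest such probe set on average, and intensities were converted to log2(value + 1). The 13956 genes whose mean log2 value exceeded the 30th percentile (6.29) were tested with limma 3.58.1 in R 4.3.3 (lmFit, eBayes, infinite prior degrees of freedom), adjusted by Benjamini and Hochberg over all of them at 0.05. The procedure was tested on simulated data. Precision is limited by having 2 arrays in each group. The members and gene lists were chosen with earlier results of these data known. From the pathway lists up to 4 called, non-overlapping genes of largest change were named, from marker lists the brightest, and for each member the 3 nearest profiles. Alternatives covered filter, scaling, pseudocount, variance model, array weights, probe sets, replicate block and each array left out; list counts without each array were added after seeing the data.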

Additional observations from a re-analysis of the deposited data

How the results depend on the processing

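With no pooling of variances, 0 genes were called higher and 0 lower, and so 0 members either way, with 842 and 972 genes and 1 and 1 members at an unadjusted p under 0.05; Id2 (0.59) and Id3 (-0.75) kept their fold changes with adjusted p-values of 0.334 and 0.375 from an ordinary linear model. With 16 added before the logarithm and with an intensity trend, 2 members were higher, since Tcf3 passed (0.45, adjusted p = 0.0442, and 0.46, adjusted p = 0.0152). Leaving out 1 array gave 252 to 918 genes higher and 118 to 767 lower, 0 to 1 members higher and 0 to 1 lower, and log2 fold changes of 0.49 to 0.69 for Id2, -0.88 to -0.62 for Id3, 0.13 to 0.79 for Tcf3, 0.12 to 0.43 for Tcf4 and -0.44 to -0.23 for Tcf12. Over 15 alternatives Id2 was past the threshold in 11, Id3 in 13, Tcf3 in 3, and Tcf4 and Tcf12 in 0; Id1 could be tested only with no filter. No sign changed among these. Deviations of same-numbered arrays correlated at -0.0923 across genes, so the numbers were not taken as pairs; with the replicate number as a block 603 genes were higher and 429 lower, and Id2 (limma adjusted p = 0.0169) and Id3 (7.71e-04) stayed past the threshold. A fit without 1 array takes its spread from the other group's pair, with the lone array assumed to vary alike; other causes of these differences were not tested. No detection call came with the values, so how far background in the signal limits the dimmer genes was not tested.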
